A study of Sus scrofa with 2 samples.

Results

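Ensembl transcripts of at least 150 and under 200 bases, the size span of the U1, U2 and U12 small nuclear RNAs, were followed in the ovary of young pigs. Every feature of either library with an Ensembl transcript identifier and a length in this span was taken, which gave 37 of the 400 Ensembl transcripts and of the 88173 features in all. Crossbred Landrace x Yorkshire gilts, 6 animals in all with no treatment named in the labels, supplied ovaries at 30 days (the younger pool) or 90 days (the older pool) after birth. Total RNA of the animals of each age was mixed in equal parts and gave 1 Illumina library, so differences between animals were averaged before sequencing. No test between ages exists for such data, and each difference given here describes these 2 pools. The labels give the tissue as ovary, and its cell types could not be checked against markers, because the features carry no gene names. In whole tissue, fewer cells of a type and less RNA per cell cannot be told apart.

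Small nuclear RNAs are short nuclear RNAs that work inside protein complexes. U1 pairs with the start of an intron, U2 pairs with the branch point, and U12 does the work of U2 in the minor spliceosome, which handles a rare class of introns. Mammalian genomes hold many copies of these genes, some active and many decayed, and the copies can be very alike in sequence. None of the 37 identifiers matched a gene name (0 matches in each of 2 name tables), so the label of small RNA rests on length alone. A group of 3 transcripts had 150 bases, the usual length of U12 genes. A group of 8 shared the usual length of U1 genes, 1 base above the 163-base transcripts, and a group of 6 shared the usual length of U2 genes, 1 base above the 190-base transcript. They are called U12-length, U1-length and U2-length transcripts here, and the other 20 by their number of bases. A length does not identify a gene, and no sequence was at hand for these identifiers. The counts are of uniquely assigned reads, so reads of near-identical copies could be lost or placed on one copy, and the level of any single copy is uncertain for that reason.

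The libraries held 9376506 and 10706106 assigned reads, so that 1 read was worth 0.107 counts per 1000000 reads (CPM) in the younger pool and 0.0934 CPM in the older. Of the 37 transcripts, 29 had reads in both pools, 2 in the younger alone and 6 in the older alone. The 2 seen in the younger pool alone had 2 reads each, and the 6 seen in the older alone had between 1 and 4. A count of 0 allows up to 3 reads, so the absence of these 8 from a pool could not be established at this depth. In the younger pool 6 transcripts had at least 1000 reads, 7 had from 100 to under 1000, 7 had from 10 to under 100 and 11 had fewer than 10. In the older pool the numbers were 6, 8, 6 and 15. The median was 22 reads in the younger pool and 11 in the older, while the most abundant transcript had 65237 and 20680.

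Together these transcripts held a smaller part of the older library, and a few abundant ones held most of their reads. They took 89985 reads of the younger library, a share of 0.960% (exact 95% interval 0.953% to 0.966%). Of the older library they took 35600 reads, a share of 0.333% (0.329% to 0.336%). The share of the older pool divided by that of the younger was 0.346 (0.342 to 0.351). A share also depends on the rest of the library, where Ensembl transcripts of 200 bases or more went from 59.3% to 71.6% of all reads. When the total left out the 4 most abundant features, the ratio was 0.501. All intervals here are exact, cover counting error only, and leave out the spread between animals. The 3 transcripts with the most reads in the younger pool held 92.0% of the reads of the 37 there and 69.7% in the older pool. Without them, the other 34 had 7181 and 10792 reads, and the ratio turned to 1.32 (1.28 to 1.36). This left-out set was chosen after its values were seen. It was picked by reads in the younger pool, which by itself raises the ratio, so the turn does not show what set the smaller share. The 3 with the most reads in the older pool held 74.5% of the reads of the 37 there, and the ratio without those was not computed.

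**Figure D1:**
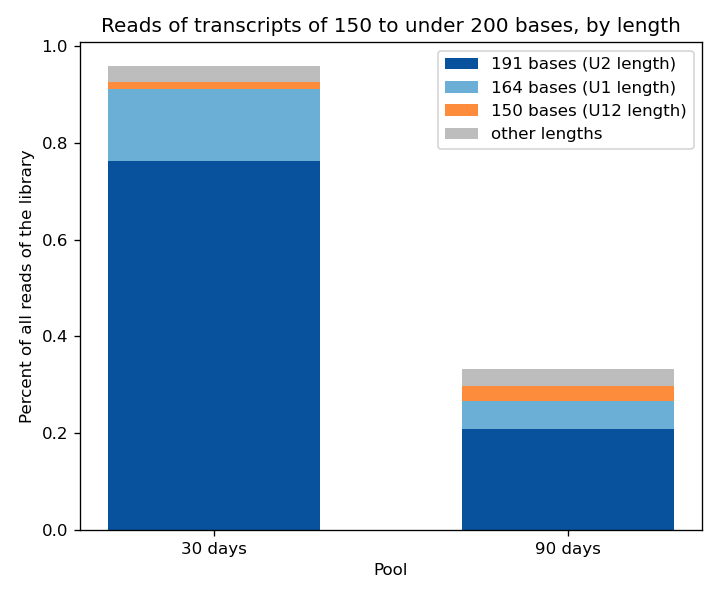
Stacked bars give the percent of all reads of each library (vertical axis, starting at 0) that fell on U2-length, U1-length, U12-length and other transcripts of at least 150 and under 200 bases. The whole bar is 0.960% at 30 days and 0.333% at 90 days, and the U2-length part makes up most of both bars.

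The 6 U2-length transcripts, the longest of the 37, held most of the reads in both pools. As a group they had 71417 reads in the younger pool and 22309 in the older, or 0.762% and 0.208% of the libraries. The group's CPM was 3.66-fold lower in the older pool (3.60 to 3.71). The leading one had 65237 reads (6957 CPM) in the younger pool and 20680 reads (1932 CPM) in the older, 3.60-fold lower (3.55 to 3.66). Per length it reached 36427 and 10113 RPKM (reads per kilobase of length, per 1000000 reads), which ranked 5 and 6 among all features of the libraries. It alone made up 72.5% of the reads of the 37 transcripts in the younger pool and 58.1% in the older.

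The less abundant U2-length transcripts did not keep step with each other. The second had 5827 and 1449 reads, 4.59-fold lower in the older pool (4.33 to 4.87). The next in order, ENSSSCT00000029671, had 170 reads (18.1 CPM) in the younger pool and 17 reads (1.59 CPM) in the older, 11.4-fold lower (6.92 to 20.1). Beside it stood a transcript with 169 and 153 reads, 1.26-fold lower (1.01 to 1.58). These transcripts were nearly equal in the younger pool, and their ratios have intervals that do not overlap. The remaining ones of this length had 10 and 7 reads, and 4 and 3 reads, and the interval of each ratio included 1, so no difference was detectable at this depth. Transcripts close to this length were set beside them. The more abundant 188-base transcript had 832 and 744 reads, 1.28-fold lower in the older pool (1.16 to 1.41), and the other of that length had 8 and 13. The 190-base transcript and the one a base shorter than 188 had no read in the younger pool, and 2 and 1 reads in the older.

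The 8 U1-length transcripts differed in direction among themselves. Their sum was 14131 reads in the younger pool and 6294 in the older, 2.56-fold lower in CPM (2.49 to 2.64). The leading one had 11740 reads (1252 CPM) in the younger pool and 2679 reads (250.2 CPM) in the older, 5.0-fold lower (4.80 to 5.22). It held 83.1% of the group's reads in the younger pool and 42.6% in the older. The second had 1560 reads (166 CPM) and 1905 reads (178 CPM), a ratio of 1.07 whose interval (0.9997 to 1.14) included 1, and its part of the group went from 11.0% to 30.3%. The one after it had 613 and 587 reads, 1.19-fold lower (1.06 to 1.34).

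Other U1-length transcripts were higher in the older pool. ENSSSCT00000019860 had 163 reads (17.4 CPM) in the younger pool and 797 reads (74.4 CPM) in the older, 4.28-fold higher (3.61 to 5.10). ENSSSCT00000031392 had 22 reads (2.35 CPM) and 302 reads (28.2 CPM), 12-fold higher (7.80 to 19.5). Both ratios lay above 1 with their whole intervals, while that of the leading U1-length transcript lay below 1. The remaining ones had 29 and 22 reads, 2 and 0 reads, and 2 and 2 reads. The ratio of the first of these had an interval from 0.364 to 1.2, and the others stayed under the floor of 3 reads.

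The 3 U12-length transcripts were also split. The leading one had 1064 reads (113 CPM) in the younger pool and 3161 reads (295 CPM) in the older, 2.60-fold higher (2.43 to 2.79). By reads it stood second among the 37 in the older pool, where it reached 1968 RPKM. The second of this length had 287 reads (30.6 CPM) and 150 reads (14 CPM), 2.18-fold lower (1.79 to 2.68). The last had 8 and 16 reads, a ratio of 1.75 with an interval from 0.707 to 4.73. As a group the U12-length transcripts had a 2.14-fold higher CPM in the older pool (2.01 to 2.29), and their part of the reads of the 37 went from 1.51% to 9.35%.

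**Figure D2:**
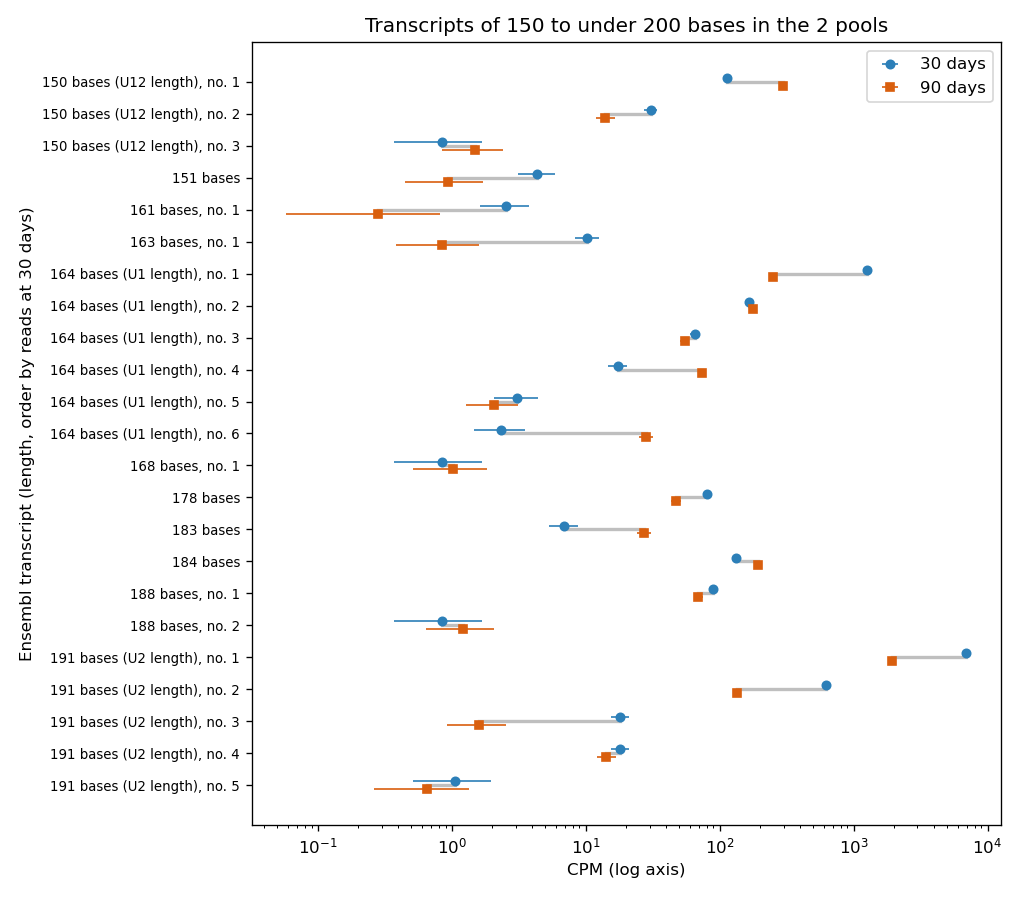
Each row is 1 of the 23 transcripts that reached 1 CPM in either pool, with its CPM at 30 days (circle) and 90 days (square) on a log axis and exact 95% Poisson intervals for counting error. Rows are ordered by length and, within a length, by reads at 30 days. Squares lie left of circles for U2-length no. 1 and no. 2 and U1-length no. 1, and right of them for U1-length no. 4 and no. 6.

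The transcripts of other lengths were of middle or low abundance. The 184-base transcript had 1240 reads (132 CPM) in the younger pool and 2059 reads (192 CPM) in the older, 1.45-fold higher (1.35 to 1.56). The 183-base transcript had 65 and 292 reads, 3.93-fold higher (3.0 to 5.23). The 178-base transcript had 753 and 507 reads, 1.70-fold lower (1.51 to 1.90). Thus the neighbours of 183 and 184 bases were both higher in the older pool, the former by more.

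A further 3 transcripts were lower in the older pool. ENSSSCT00000019832, of 163 bases, had 96 reads (10.24 CPM) in the younger pool and 9 reads (0.841 CPM) in the older, 12.2-fold lower (6.15 to 27.4). The 151-base transcript had 41 and 10 reads, 4.68-fold lower (2.31 to 10.5). The more abundant 161-base transcript had 24 and 3 reads, 9.13-fold lower with a wide interval (2.77 to 47.4). All 3 ratios rest on 10 reads or fewer in the older pool. The transcripts not yet described had at most 8 reads in the younger pool and 11 in the older.

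A rule of size was then applied to the whole catalogue. Features reaching 1 CPM in either pool were compared by the log2 ratio of older to younger CPM, with 1 CPM added to each, and a 2-fold difference was called. The added CPM understates the change of low features. Of the 37 transcripts 23 were compared, and the other 14 had at most 4 reads in the younger pool and 7 in the older. Called higher in the older pool were 4, or 17.4% of those compared, against 14.6% of the 73973 features compared in the catalogue. Called lower were 8, or 34.8%, against 36.6% in the catalogue. Both shares were near this background, so the number of calls does not set these transcripts apart. Among features with a mean of at least 50 CPM over the 2 pools, 8.29% of 519 were called higher and 29.5% lower. Of the 37 transcripts 9 were in that range, with 1 called higher and 3 lower. The median log2 fold of the 23 was -0.32, beside -0.49 for all features compared, and its sign changed with the scaling.

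Differences of 4-fold were called for 6 of the 23, counted here as 2 higher and 4 lower. The 2 higher make up 8.70% of those compared, against 1.49% of the catalogue, and the 4 lower 17.4%, against 9.06%. These shares lie above the background but rest on very few transcripts, and no test of that difference was made. Of the 133 other Ensembl transcripts compared, 6 were called 4-fold higher and 13 lower. By length these were 0 and 6 of 12 under 120 bases, 3 and 1 of 71 from 120 bases, and 3 and 6 of 50 from 200 bases. The 4-fold background was not matched for abundance, and the added CPM makes a 4-fold call harder for low features. ENSSSCT00000031392 had a log2 fold of 3.13 and ENSSSCT00000019860 of 2.04, and both have the U1 length. ENSSSCT00000029671 had -2.89, ENSSSCT00000019832 had -2.61, the leading U1-length transcript had -2.32 and the second U2-length transcript had -2.19. At 2-fold, the interval of the plain CPM ratio lay wholly beyond 2-fold for 4 of the 4 called higher. It did so for 7 of the 8 called lower, the exception being the second U12-length transcript. These intervals come from the same counts as the calls and lend them no separate support. Of the 23, 16 reached 1 CPM in both pools and gave 4 higher and 5 lower. The 7 that reached it in 1 pool gave 0 higher and 3 lower, and the rest lay between the calls. Those 3 are among the lower ones whose interval lay wholly beyond 2-fold. Entry through the higher pool alone selects for a difference in that direction.

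Between the calls lay 11 transcripts, with log2 folds from -0.75 to 0.54. The interval of the plain ratio excluded 1 for 5 of them, with 1 above and 4 below, and included it for 6. The one above was the 184-base transcript. The 4 below were the 178-base transcript, the more abundant 188-base transcript, the U1-length transcript with 613 reads in the younger pool and the U2-length transcript with 169. All 4 were lower with the library total and with the median log2 ratio of all features set to 0. Under TMM, median-of-ratios and upper-quartile factors, and with the 4 most abundant features left out of the total, 3 of the 4 turned higher, all but the 178-base transcript. With TMM their plain log2 ratios were 0.035, 0.13 and 0.052 for the 188-base, the U1-length and the U2-length transcript, and -0.37 for the 178-base transcript. With the total of Ensembl transcripts shorter than 200 bases all 4 turned higher.

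The choice of scale shifted all ratios upward. TMM, median-of-ratios and upper-quartile factors, a median log2 ratio of 0, and a total that leaves out the 4 most abundant features raised each log2 ratio by 0.19 to 0.53. Under these 5 scalings the 4 higher transcripts and 7 of the 8 lower ones kept their calls. Of all features compared, 17.2% to 24.1% were then called higher and 27.8% to 32.8% lower. The second U12-length transcript lost its call under each of the 5, with log2 folds from -0.89 to -0.57. The 184-base transcript gained one when the 4 most abundant features were left out, with 1.06. A total of Ensembl transcripts shorter than 200 bases raised each log2 ratio by 1.15. It moved the split to 7 higher and 4 lower of 22 compared, beside 36.7% and 19.4% of all features compared. The 37 transcripts themselves made up 77.3% of that total in the younger pool and 59.4% in the older, and the leading U2-length transcript then lay between the calls, with -0.70.

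**Figure D3:**
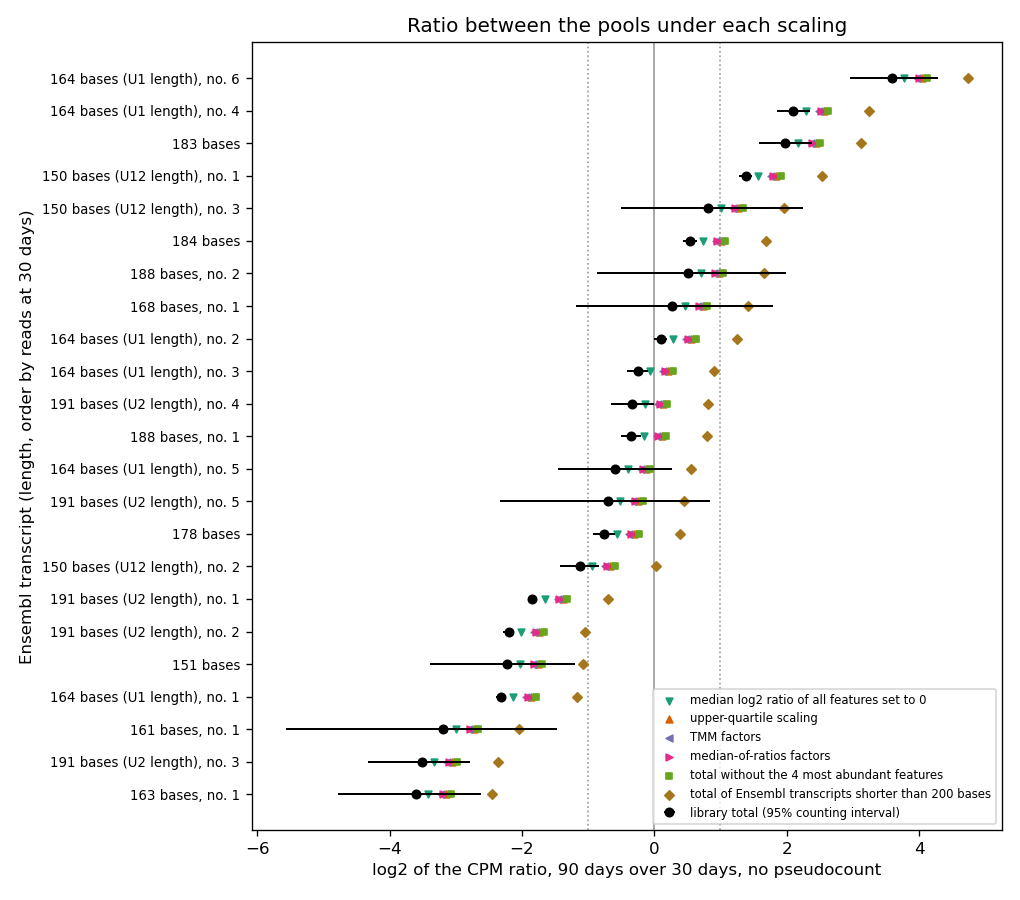
For the same 23 transcripts the horizontal axis gives the log2 of the plain CPM ratio, 90 days over 30 days, as black circles with exact 95% counting intervals for the library total, and coloured marks for 6 other scalings. Dotted lines mark 2-fold. A scaling moves all rows by one amount, so the order of the rows stays, from the 163-base transcript at the bottom to U1-length no. 6 at the top.

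Ratios between transcripts of one library need no scaling between libraries. Per length (RPKM), the leading U2-length transcript stood 48.2 times above the leading U12-length transcript in the younger pool and 5.14 times in the older. Against the leading U1-length transcript the values were 4.77 and 6.63, and against the second U2-length transcript 11.2 and 14.3. The proportion of the leading U2-length to the leading U1-length transcript thus changed far less than its proportion to the leading U12-length transcript. Against the 184-base transcript the values were 50.7 and 9.68, and against the more abundant 188-base transcript 77.2 and 27.4. ENSSSCT00000031392 lay 2546 times below the leading U2-length transcript in the younger pool and 58.8 times below it in the older.

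The other Ensembl transcripts were set beside these by length. The 110 transcripts under 120 bases had 2747 and 377 reads, a ratio of library shares, older over younger, of 0.12 (0.108 to 0.134). The 142 of at least 120 and under 150 bases had 23689 and 23934 reads, a ratio of 0.885 (0.869 to 0.901). The 111 of 200 bases or more, among them the most abundant features of the catalogue, had a ratio of 1.208 (1.206 to 1.209). The ratio of 0.346 for the 37 transcripts lay between those of both shorter classes. Whether the classes differ beyond the spread between animals was not tested. Of the compared transcripts under 120 bases, 0 were called higher and 10 lower of 12, in the next class 7 and 15 of 71, and in the longest 6 and 12 of 50.

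Transcripts just outside the limits of length were not alike. The 4 Ensembl transcripts a base short of 150 had 4, 12, 14 and 238 reads in the younger pool and 2, 6, 34 and 327 in the older, and none of them was called. The nearest longer one, of 200 bases, had 222 and 1037 reads and was called higher, with a log2 fold of 1.99.

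**Figure D4:**
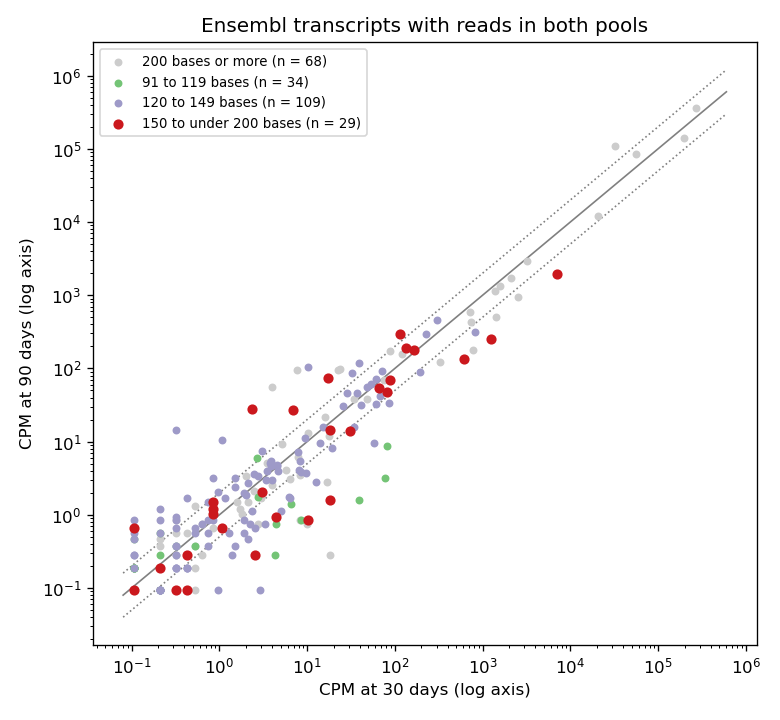
Ensembl transcripts with reads in both pools are plotted by CPM at 30 days (horizontal) and 90 days (vertical), both on log axes, coloured by length, with the 29 of at least 150 and under 200 bases in red. The solid line is equality and the dotted lines are 2-fold. The 3 red points that are highest at 30 days lie below the lower dotted line, and other red points lie above the upper one.

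The covered percent of the length, a column of its own in the files, shows how far reads reached along a transcript. Each feature of the catalogue with a single read, 1806 in the younger library and 2439 in the older, had 90 bases covered, so 1 read spans 90 bases of these short transcripts. Transcripts with at least 100 reads numbered 13 in the younger pool and 14 in the older. They were covered over 81.1% to 98.9% of their length in the younger pool, with a median of 92.55%, and over 84.8% to 98.9% in the older, with a median of 92.4%. None was covered whole, and between 2 and 31 bases had no read in the younger pool and between 2 and 27 in the older.

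The most abundant transcripts had such gaps too. The leading U2-length transcript, with 65237 reads, lacked 10 bases in the younger pool and 12 in the older. The second one of this length lacked 26 and 17, and the leading U1-length transcript 15 and 13. The 184-base transcript lacked 2 and 3 bases and the 183-base transcript 3 and 2, with far fewer reads. Over the transcripts of at least 150 and under 200 bases with 100 reads or more, the median number of bases without a read was 14 in the younger pool and 12 in the older. It was 8 and 9 in the class from 120 bases, and 8 and 7 in the class from 200 bases. The files do not say at which positions the uncovered bases lie.

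Coverage was similar in the 2 pools where reads were plentiful. Among the 12 transcripts with at least 100 reads in both, the covered percent was higher in the older pool for 7 and lower for 5, with differences between -6.91 and 7.33 percentage points. ENSSSCT00000019860, 4.28-fold higher in CPM in the older pool, was covered over 81.1% and 87.8%. The leading U1-length transcript, 5.0-fold lower, was covered over 90.85% and 92.1%. ENSSSCT00000031392 was covered over 86.0% with 22 reads and over 84.8% with 302 reads, so its additional reads in the older pool did not widen the covered part.

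**Figure D5:**
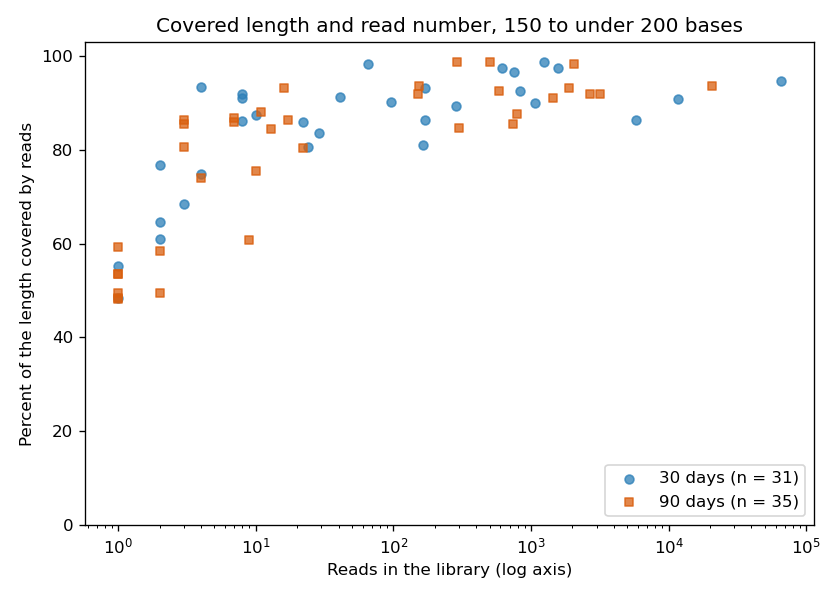
Each point is 1 transcript of at least 150 and under 200 bases in 1 pool, with its reads on a log axis (horizontal) and the percent of its length covered (vertical, from 0). There are 31 points for 30 days and 35 for 90 days. Points with 1 read lie where 90 covered bases put them, and those with at least 100 reads lie between 81.1% and 98.9%, with no further rise up to 65237 reads.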

How the data were processed

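RNA of pig ovaries was pooled by age and sequenced as 1 library per age, per the labels' protocols. Each feature has, per the file headers, a deposited count of uniquely assigned reads, its length, the percent of the length covered and an RPKM value. The deposited counts summed to the header totals, and the deposited RPKM equalled reads per kilobase scaled to that total within a relative tolerance of 1e-06. Per the submitters' processing notes TopHat, Cufflinks and build Sscrofa10.2 belong to the pipeline, in roles not stated. Annotation, counting tool, strand and depletion method: not given in the sources used here.

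Features absent from one table were given 0 reads, since the listed rows hold every read of the total. CPM were computed from the library totals. Intervals are exact at 95%: Clopper-Pearson for shares, the binomial share of reads at 90 days for ratios, and Poisson for plotted CPM. The rule of size was tried on simulated counts that held counting error alone, with changes larger than 2-fold set in features above 5 CPM. That trial therefore says nothing on the spread between animals or on lower features. Scaling factors came from edgeR 4.0.16 (R 4.3.3); each alternative scaling was split evenly between the libraries, so that pseudocount and filter kept their place. Python 3.11.15, pandas 2.3.3, scipy 1.17.1 and matplotlib 3.10.9 did the rest. Named by identifier were the 2 transcripts with the largest and the 2 with the smallest log2 fold among those compared; the 5 most abundant of each library and all others past 2-fold are described by length. Depth limits single transcripts: at 10 reads or fewer only large differences show. The transcripts and rules were chosen with earlier results of these data known. Gene lists and cell markers planned for named features were not used, as no identifier matched a symbol in the name tables (RefSeq assembly Sscrofa11.1).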

Additional observations from a re-analysis of the deposited data

How the results depend on the processing

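No paired analysis was possible because a single pooled library stands for each age, so no library could be left out either. Of 48 values of counts, medians and shares under alternatives, 27 stayed within 1.5 times the main count or at its value, 15 moved and 6 turned direction. The cause was not tested except where the construction of the alternative shows it. Without a filter 37 transcripts were compared in place of 23, as every transcript has a read. The 4-fold rule gave 2 higher and 4 lower, and by construction it could not give more than 4 and 8. The total of Ensembl transcripts shorter than 200 bases gave 7 higher and 4 lower of 22 compared, because it raises each log2 ratio by 1.15. Over all features compared it gave 36.7% higher and 19.4% lower. RPKM gave 7 higher and 11 lower of 32 transcripts compared, beside 16.8% and 38.2% of all features compared. The added calls fell on transcripts under 1 CPM in both pools. RPKM changed unit, pseudocount and minimum together. In CPM, a smaller pseudocount alone and no filter alone each kept 4 higher and 8 lower. Both changes together were not run in CPM. The median log2 fold, -0.32 with the library total, was -0.35 with a pseudocount of 0.1 and with 0.01, -0.33 from 5 CPM, -0.16 without a filter, -0.15 with the median log2 ratio of all features set to 0 and -0.37 with RPKM. It turned positive with upper-quartile scaling (0.11), TMM (0.042), median-of-ratios (0.067), a total leaving out the 4 most abundant features (0.18) and the total of Ensembl transcripts shorter than 200 bases (0.73). These scalings add one amount to the plain log2 ratio of every feature of the catalogue. The median of all features compared was lower, -0.49 with the library total, and whether it also changed sign was not tested. The ratio of their share, 0.346, was 0.501 when the total left out the 4 most abundant features, 0.769 with the total of shorter Ensembl transcripts and 0.528 without the most abundant transcript. Without the 3 transcripts with the most reads in the younger pool, chosen after seeing the data, it was 1.32. A choice by reads in the younger pool by itself raises this ratio. Of the 12 called transcripts, the second U12-length transcript alone changed sign under the alternatives run, with 0.021 under the total of shorter Ensembl transcripts. Of the 4 transcripts below 2-fold whose interval lay under a ratio of 1, 3 turned higher under 4 of the 6 scalings and all 4 under the total of shorter Ensembl transcripts. A pool of animals read once leaves the spread between animals unknown.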
